A study of Rattus norvegicus with 20 samples.

Results

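Secretory granules and the machinery that fuses them with the plasma membrane were examined in INS-1, a cell line from a rat insulinoma that serves as a model of insulin-secreting beta cells. The 36 genes were named by their known function, but with earlier results of these data known. The shares of all genes given below are therefore no blind background for them. Of the 36, 35 had a probe set carrying exactly 1 gene symbol, out of 18166 genes measured. Unc13a, a priming factor, has no probe set of that kind and was not analysed here. Of the 35, 8 encode granule cargo or granule membrane proteins and 27 were grouped under fusion, docking or calcium sensing. Those 27 are 9 SNAREs and SNARE-recycling factors, 8 synaptotagmins, Doc2 and complexin genes, and 10 docking, tethering and priming factors. The 8 are called calcium sensors and clamps for short, but Syt11 and Syt13 among them lack the usual calcium-binding residues.

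The cells had been kept as 5 separate clones over 10 passages and were plated at 100000 cells a well, grown for about 48 h and then treated for 10 h before RNA was taken. Of 20 arrays, 5 each are titled DMSO, IAPP, C4BPD and C4BP. DMSO (1%) is the solvent control of islet amyloid polypeptide (IAPP), a beta-cell hormone that forms amyloid, given at 77 µM (300 µg/ml in the sample labels). C4BP is C4b-binding protein, a plasma inhibitor of complement, given at 0.6 µM (also 300 µg/ml). The likely reading of the other titles is C4BP alone for C4BPD and C4BP with IAPP for C4BP, which the labels do not spell out. The treatment field of the labels repeats the title's word in only 2 of 10 arrays with IAPP or DMSO as title. Groups below are named by title. Grouped by that field instead, no gene of the 18166 passed in any comparison. Whether a replicate number stands for a clone is not stated, and the p-values measure the spread between these wells.

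In beta cells, insulin is stored in dense-core granules whose matrix is built from granins such as chromogranins, and whose membrane carries the zinc transporter ZnT8 and the receptor-like phosphatases of the Ptprn family. Granules dock at the plasma membrane through Rab GTPases and their effectors, are primed, and fuse when the granule SNARE Vamp2 zippers with Stx1a and Snap25 on the plasma membrane. Calcium-binding synaptotagmins and Doc2 proteins link fusion to calcium, complexins clamp and promote it, and Nsf with Napa takes spent SNARE complexes apart.

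Values are probe-set intensities on a linear scale, differences are of log2 intensity, and a gene was counted as changed at a Benjamini-Hochberg adjusted p under 0.05 over all 18166 genes in limma's moderated test. Array medians ran from 170 to 182.4, and correlations between arrays, over all probe sets, from 0.985 to 0.996. All 12 measured beta-cell markers had mean log2 intensities above 7.48, the median of all probe sets, and their summed intensity ran from 57178 to 59853 in DMSO, 53929 to 57179.9 in IAPP, 57419 to 61015 in C4BPD and 53946 to 57811 in C4BP. Ins1, Ins2 and Iapp, the insulin and amylin genes, did not pass the F test (adjusted p = 0.917, 0.732 and 0.435), whereas 3 of the 12 did: Slc2a2, the GLUT2 glucose transporter (adjusted p = 0.00567), and the transcription factors Isl1 (0.0432) and Mafa (0.0489). Slc2a2 read 10797 to 11054 in DMSO, 9911 to 10326 in IAPP, 10550.2 to 11144 in C4BPD and 9667 to 10148 in C4BP, so it was lower in IAPP and C4BP without overlap. Mafa averaged 1230.2 ± 97 in DMSO, 1025 ± 63 in IAPP, 1103 ± 86.7 in C4BPD and 1037 ± 94.7 in C4BP, and Isl1 3522 ± 204, 3111 ± 196, 3479 ± 138 and 3262 ± 74.5 in the same order (SD, n = 5 arrays per group). Of 5 measured markers of other islet cells, 2 were above that median, among them Gcg, the glucagon gene (F test, adjusted p = 0.0348), at 9934 to 10619.9 in DMSO, 9160.4 to 9576 in IAPP, 9852 to 10311 in C4BPD and 9753 to 10348 in C4BP. The summed intensity of those 5 was 9698 to 10155 in IAPP, wholly below the 10488 to 11188 of DMSO, while C4BP, at 10341 to 10916, overlapped DMSO. That sum is mostly Gcg, which averaged 9956 over all arrays, while Sst, Ppy, Ghrl and Hhex averaged 109.9 to 218. It therefore repeats the Gcg values. The beta-cell sums of IAPP and C4BP reached lower than those of DMSO but overlapped them. For IAPP the overlap was marginal, its highest sum being 57179.9 and the lowest DMSO sum 57178. The other islet sum lay wholly below DMSO only in IAPP. The part of these sums in the results below was not tested. Above the probe-set median were also 1 of 6 acinar and duct markers, 3 of 5 fibroblast markers, 0 of 4 leukocyte markers and 0 of 1 endothelial marker, and none of these 4 lists held a gene called in the F test. The arrays measure RNA of whole wells, so fewer cells of a kind and less RNA per cell cannot be told apart.

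Passing here refers to the fit of the 4 group means, with no term for the replicate number. With that term, 9 of the 35 passed in IAPP vs DMSO, 10 in C4BP vs DMSO and 5 in C4BP vs C4BPD. All genes called were then 1133, 1884 and 958, and none of the 35 lost a call. Without that term, most of the 35 genes did not pass: 9 passed the threshold in at least 1 comparison and 26 in none. In IAPP vs DMSO, 1 rose and 4 fell, against a background of 3.38% of all genes called (1.41% higher and 1.97% lower). C4BP vs DMSO had 2 higher and 4 lower, with 5.96% of all genes called (2.72% higher, 3.23% lower). In C4BPD vs DMSO 1 gene rose and none fell, with a background of 1.93% (1.17% higher, 0.765% lower). In C4BP vs C4BPD none rose and 1 fell, with 2.37% of all genes called (0.754% higher, 1.62% lower). In C4BP vs IAPP none of the 35 passed in limma's test, and 2, Syt11 and Cadps2, had an unadjusted p under 0.05 (5.71%, beside 7.93% of all genes). Of all genes 0.606% were called there (0.374% higher, 0.231% lower). These genes are brighter than most. With dim genes left out, 7.08% of the remaining 11154 genes were called in IAPP vs DMSO and 12.2% in C4BP vs DMSO. Of the 35, 14.3% and 17.1% were called there, but with dim genes kept in. Their shares with dim genes left out are not given for these comparisons, so the percentages are not matched. The share of the 11154 genes was 4.21% in C4BPD vs DMSO and 5.37% in C4BP vs C4BPD. It was 1.8% in C4BP vs IAPP and 0.117% in the interaction. In C4BP vs C4BPD, leaving out dim genes raised the calls among the 35 from 1 to 3. In the F test of any difference among the 4 groups, 7 of the 35 passed (20%, background 7.85%), namely Slc30a8, Snap25, Syt11, Syt13, Rab37, Sytl4 and Cadps2. The changes were small: the median absolute log2 difference of the 35 was 0.08 in IAPP vs DMSO, beside 0.05 over all genes.

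**Figure D1:**
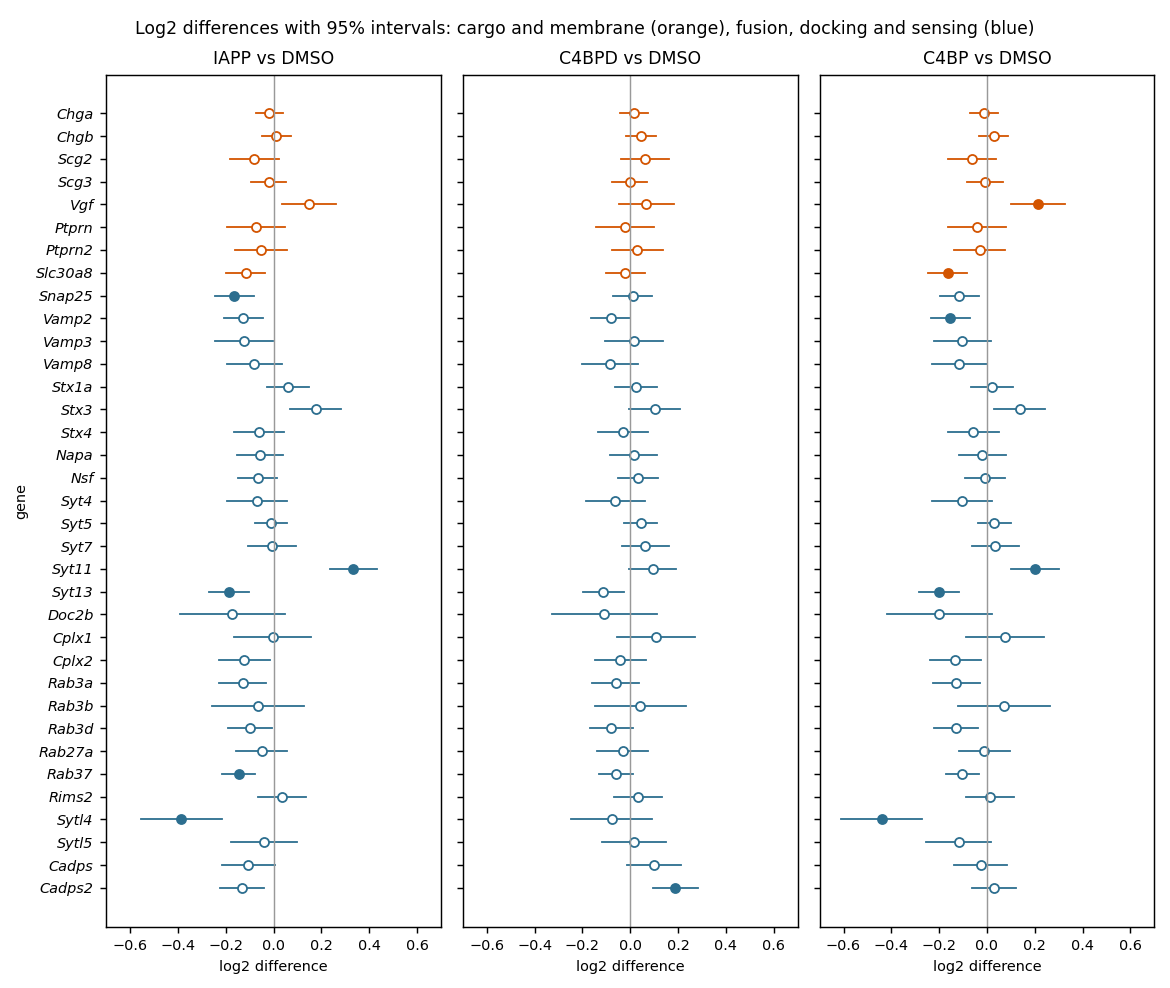
Log2 difference (x axis) of each of the 35 genes (y axis, ordered by role) from DMSO in IAPP, C4BPD and C4BP wells, 5 arrays a group, with 95% intervals from the limma fit. Filled points passed an adjusted p under 0.05; orange marks granule cargo and membrane genes and blue fusion, docking and calcium-sensing genes, and the points of Sytl4 and Syt11 lie farthest from 0 in IAPP and C4BP.

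Of the 8 granule cargo and membrane genes, Vgf rose and Slc30a8 fell, both in C4BP vs DMSO, and the other 6 passed in no comparison. Chga, the chromogranin A gene, read 11887, 11782, 11764, 11528 and 11938 in DMSO, 11704, 11767, 11759.8, 11551 and 11445 in IAPP, 11899.9, 12257, 11644, 11807 and 11909 in C4BPD and 11707, 11577, 11743, 11766 and 11639 in C4BP. The 4 groups overlapped throughout, and the IAPP difference was -0.02 with a 95% interval of -0.07 to 0.04. Chgb, its sister granin, had intervals of -0.05 to 0.07 in IAPP vs DMSO and -0.03 to 0.09 in C4BP vs DMSO. Scg3, which binds chromogranin A in the forming granule, differed by -0.02 in IAPP vs DMSO and -0.01 in C4BP vs DMSO. For Chga the interval in IAPP vs DMSO runs from -5.04% to 2.92%, so larger changes than these lie outside it.

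Vgf, a granin-like cargo protein processed to secreted peptides, was the cargo gene that rose. Its intensities were 3460.2, 3399, 3565, 3783 and 3972 in DMSO and 4274, 3946, 4084, 4292 and 4445 in C4BP. All but the lowest C4BP array lay above the highest DMSO array, so the groups overlapped slightly. The rise was 15.8% (0.21 on the log2 scale, 95% interval 0.10 to 0.33; limma, adjusted p = 0.0209). In IAPP wells it read 3844, 3790.2, 3756, 4217 and 4549, a difference of 0.15 that did not pass (adjusted p = 0.201), and in C4BPD wells 3886, 3656, 3815, 3798 and 3863, a difference of 0.07 (adjusted p = 0.696). C4BP vs C4BPD, 0.14, did not pass either (adjusted p = 0.218), though all C4BP arrays lay above all C4BPD arrays. The C4BP call was lost when DMSO 1, 2 or 3 or C4BP 4 or 5 was left out, at adjusted p up to 0.0666. Without every array of a replicate number, it was lost in 4 of 5 fits (up to 0.111).

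Slc30a8 encodes ZnT8, which loads zinc into the granule for insulin crystals. It read 6463, 6334, 6747, 6232 and 6418 in DMSO, 5960, 6054, 6225, 5670 and 5781 in IAPP, 5959.7, 6318, 6666, 6308 and 6473 in C4BPD and 5833, 5483, 6025, 5668 and 5700.4 in C4BP. Every C4BP array lay below every DMSO array, and the 5 IAPP arrays did as well. In C4BP vs DMSO it fell by 10.8% (on the log2 scale it fell by 0.17; limma, adjusted p = 0.0112), while IAPP vs DMSO, at -0.12, did not pass (adjusted p = 0.134). With DMSO and C4BP fitted by themselves the call ended (adjusted p = 0.0515), as it did in 3 of 5 fits without every array of a number (up to 0.0861). Its F-test call was lost with centred arrays (adjusted p = 0.061).

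Scg2, Ptprn and Ptprn2 passed in no comparison. Scg2, secretogranin II, spanned 4920.1 to 5945 over the 20 arrays, with differences of -0.08 in IAPP vs DMSO and -0.13 in C4BP vs C4BPD (adjusted p = 0.241). Ptprn and Ptprn2, paired phosphatase-like proteins of the granule membrane, differed from DMSO by -0.07 and -0.05 in IAPP and by -0.04 and -0.03 in C4BP. In both, replicate 1 was the highest DMSO array.

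Promoter letters were read because granin genes are textbook targets of the cAMP pathway through the cAMP response element (CRE). RefSeq's promoter table (build GRCr8) held 26 of the 36 genes, and TGACGTCA was searched in the 250 bases before each listed start (the motif is its own reverse complement, so both strands are covered). It occurred in 3 of the 26 (11.5%), beside 1.59% of all 33469 promoters. Those were the cargo genes Scg2 and Vgf, out of 6 cargo genes with an entry, and the SNARE-recycling gene Napa. The cargo genes Chga and Slc30a8 had no entry and were not searched, while Chgb, Scg3, Ptprn and Ptprn2 had no match. Their sites, with the CRE in capitals, lie 123, 90 and 59 bases before the listed start, within the span RefSeq annotates for each gene, and exon and intron were not resolved.
Scg2, chr9:88256971-88257000, minus strand: ggctgagccggTGACGTCAgcgaggaatgc
Vgf, chr12:25277092-25277121, minus strand: tgaatgaacatTGACGTCAatggggcgggg
Napa, chr1:85915365-85915394, plus strand: gcagacccgggTGACGTCAacgtagcgggc
Of these 3 genes with the same 8 letters, Vgf rose in C4BP vs DMSO, whereas Scg2 (-0.06) and Napa (-0.02) did not pass. These 3 sites are shown because they are all the matches among the 26 genes searched, a choice made after values were seen. The AP-1 site, searched as TGACTCA and its reverse complement TGAGTCA, was in none of the 26 windows and in 4.05% of all promoters.

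Among the SNAREs, Snap25 and Vamp2 each fell in 1 comparison. Snap25, the plasma-membrane SNARE that gives a pair of helices to the fusion bundle, read 9038, 9188, 9432, 9106 and 9175 in DMSO, 7614, 8316, 8604, 8136 and 8364 in IAPP, 8715, 9499.6, 9338, 9312 and 9411 in C4BPD and 7927, 8665, 8412, 8672 and 8749 in C4BP. All IAPP and all C4BP arrays lay below the lowest DMSO array, while C4BPD overlapped DMSO. In IAPP vs DMSO it fell by 10.7% (on the log2 scale it fell by 0.16, 95% interval -0.24 to -0.08; limma, adjusted p = 0.0202), and C4BP vs DMSO, at -0.12, did not pass (adjusted p = 0.0953). Without DMSO 3, IAPP 1 or IAPP 4, or with the compared groups alone, the IAPP call was lost (adjusted p up to 0.0629). It was also lost in 4 of 5 fits without every array of a number (up to 0.146).

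Vamp2, the granule SNARE, read 1319, 1321, 1302, 1346 and 1336 in DMSO, 1220.1, 1149.8, 1289, 1127 and 1295 in IAPP, 1265, 1243, 1261, 1238 and 1249.9 in C4BPD and 1206, 1182, 1238, 1139 and 1190.5 in C4BP. No array of the other 3 groups reached the lowest DMSO array. In C4BP vs DMSO it fell by 10.1% (on the log2 scale it fell by 0.15; limma, adjusted p = 0.0196), with -0.13 in IAPP (adjusted p = 0.0952) and -0.08 in C4BPD (adjusted p = 0.405). Centring each array on its median ended the C4BP call (adjusted p = 0.0783), as did leaving out DMSO 4 or C4BP 4 (up to 0.0605). So did 4 of 5 fits without every array of a number (up to 0.123).

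The other 7 SNARE genes passed nowhere. Stx3, a syntaxin tied to fusion between granules, had a higher mean in IAPP, 836 ± 64.7 (SD, n = 5), against 739 ± 31.1 in DMSO wells (SD, n = 5; 0.18, adjusted p = 0.0688). Stx1a, the plasma-membrane partner of Snap25, differed by 0.06 and 0.02 in IAPP and C4BP. Vamp3 and Vamp8, vesicle SNAREs related to Vamp2, were at -0.12 and -0.08 in IAPP vs DMSO, and Stx4, the syntaxin of sustained secretion, at -0.06. Nsf, the ATPase that dismantles SNARE complexes, was at -0.07, with a 95% interval of -0.15 to 0.02, and its adaptor Napa at -0.06.

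In the synaptotagmin family, Syt11 rose and Syt13 fell, both of them members that lack the usual calcium-binding residues. Syt11 read 1158, 1144, 1137, 1095 and 1072 in DMSO, 1454, 1397, 1376, 1434 and 1405 in IAPP, 1301, 1185, 1248, 1113 and 1140.4 in C4BPD and 1364, 1254, 1394, 1232 and 1209 in C4BP. The lowest IAPP array stood above all DMSO and all C4BPD arrays, and C4BP arrays also lay wholly above DMSO. It rose by 26.1% in IAPP vs DMSO (0.33, 95% interval 0.23 to 0.43; limma, adjusted p = 0.000207) and by 15% in C4BP vs DMSO (0.20; adjusted p = 0.0115). The IAPP call held in each of the 8 other scalings and fits by title and in each fit without 1 array or 1 number. The C4BP call was lost with centred arrays or the compared groups alone (up to 0.0748). It was also lost in 1 of 5 fits without every array of a number (0.0795).

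C4BP vs IAPP differed by -0.13 for Syt11 (adjusted p = 0.341). With the titles read as above, the difference made by IAPP was 0.33 without C4BP and 0.11 with it, and the test of that change, the interaction of both agents, gave -0.23 with a 95% interval of -0.37 to -0.09 and an adjusted p of 0.815 (unadjusted p = 0.00312). Of the 35 genes it had the smallest unadjusted p in that test. None of the 35 passed in limma's test of the interaction, where 0.0495% of all genes did. An unadjusted p under 0.05 was found for 2, Syt11 and Rab37 (5.71%, beside 3.79% of all genes).

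Syt13, another of the calcium-independent kind, read 2029, 2045, 2173, 2059.9 and 2099.7 in DMSO, 1874, 1832, 1874, 1734 and 1827 in IAPP, 2105, 1878, 1807, 1911 and 1938 in C4BPD and 1851, 1880.3, 1819.6, 1744 and 1769.6 in C4BP. Neither IAPP nor C4BP arrays reached the lowest DMSO array, and C4BPD overlapped both sides. It fell by 12.2% in IAPP vs DMSO (on the log2 scale it fell by 0.19; limma, adjusted p = 0.00983) and fell by 12.9% in C4BP vs DMSO (it fell by 0.20; adjusted p = 0.00347). In C4BPD vs DMSO the difference was -0.11 (adjusted p = 0.215). Both calls held without any 1 array. Without every array of a number, the IAPP call was lost in 3 of 5 fits (adjusted p up to 0.108) and the C4BP call in 1 (0.051).

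Syt5 and Syt7, calcium-binding synaptotagmins of dense-core granules, were at -0.01 and -0.01 in IAPP vs DMSO and 0.03 and 0.03 in C4BP vs DMSO, with 95% intervals for Syt7 of -0.10 to 0.09 and -0.06 to 0.13. Syt4, the close relative of Syt11, was at -0.07 and -0.10, and neither passed; the difference between Syt4 and Syt11 was not tested. Doc2b, a soluble calcium sensor, had the widest interval of the 35 genes, -0.39 to 0.05 around -0.17 in IAPP vs DMSO, at intensities of 175 to 280.4 over the 20 arrays. Cplx2 and Cplx1, the complexins, were at -0.12 and -0.004 in IAPP vs DMSO and -0.13 and 0.08 in C4BP vs DMSO.

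The largest falls among all 35 genes were in Sytl4, which encodes granuphilin, the Rab27a effector that docks insulin granules and holds them back from fusion. It read 3267, 2826, 3180.1, 2569 and 2707 in DMSO, 2398, 2131, 2515, 1996 and 2098 in IAPP, 2978, 2771, 2875, 2556 and 2565 in C4BPD and 2324, 2219, 2348, 1938 and 1889 in C4BP. Arrays of IAPP and C4BP lay wholly below those of DMSO and of C4BPD, which overlapped each other. Sytl4 fell by 23.4% in IAPP vs DMSO (on the log2 scale it fell by 0.39, 95% interval -0.55 to -0.22; limma, adjusted p = 0.00788), fell by 26.3% in C4BP vs DMSO (log2 -0.44; adjusted p = 0.00136) and fell by 22.2% in C4BP vs C4BPD (log2 -0.36; adjusted p = 0.0155). The last of these was lost without C4BP 4 or C4BP 5 (adjusted p up to 0.0542), and in 3 of 5 fits without every array of a number (up to 0.0984). In those 5 fits the IAPP call was lost in 1 (0.074), and the C4BP vs DMSO call held.

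C4BPD vs DMSO gave -0.08 for Sytl4, with a 95% interval of -0.25 to 0.09, and C4BP vs IAPP -0.06 (-0.23 to 0.11). The interaction was 0.02, with an interval of -0.22 to 0.26. Bases before the annotated gene were to be shown for genes that passed in 2 or more comparisons, which were Sytl4, Syt11 and Syt13. Syt13 had no promoter entry, and the searched window of Syt11 held no base before its annotated gene. For Sytl4, the 194 bases directly before the annotated gene are shown, on the minus strand of chromosome X (GRCr8, chrX:101479208-101479401). They hold neither CRE nor AP-1 letters, so no letter is in capitals.
Sytl4 upstream: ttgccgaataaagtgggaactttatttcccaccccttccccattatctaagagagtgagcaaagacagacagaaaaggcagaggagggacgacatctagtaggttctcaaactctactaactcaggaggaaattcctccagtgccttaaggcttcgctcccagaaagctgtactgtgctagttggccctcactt

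Rab37, a Rab GTPase found on secretory granules, read 4855, 4805, 4737, 4567 and 4879 in DMSO, 4203, 4273, 4323, 4359.8 and 4397 in IAPP, 4538, 4585, 4449.6, 4594 and 4719 in C4BPD and 4381, 4543, 4221, 4418 and 4633 in C4BP. The IAPP arrays lay below all DMSO arrays, and the C4BP arrays overlapped DMSO. In IAPP vs DMSO it fell by 9.58% (on the log2 scale it fell by 0.14, limma, adjusted p = 0.0157). That call was lost with the compared groups alone (0.0547) and in all 5 fits without every array of a number (up to 0.141). Its F-test call was lost with quantile normalization, in 8 of 20 fits without 1 array and in all 5 without a number (up to 0.204). In C4BP vs DMSO Rab37 was at -0.10 (adjusted p = 0.0766). Rab3a, Rab3b, Rab3d and Rab27a, the Rabs best known from regulated secretion, passed nowhere. Rab3d, at -0.10 in IAPP and -0.13 in C4BP, had no array of either group above the lowest DMSO array (adjusted p = 0.351 and 0.0959), and Rab3a was at -0.13 and -0.13 (adjusted p = 0.192 and 0.131), its C4BP arrays lying wholly below DMSO. Rab27a, the partner of granuphilin, was at -0.05 and -0.01, with an interval of -0.16 to 0.06 in IAPP vs DMSO, and Rab3b at -0.07 and 0.07, with -0.26 to 0.13.

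Cadps2, one of a pair of CAPS proteins that prime dense-core granules, was the 1 gene of the 35 that rose in C4BPD. It read 579.8, 643, 610.3, 627 and 618 in DMSO, 573, 557, 581, 537 and 561 in IAPP, 678, 711, 671, 706 and 743 in C4BPD and 614, 631, 652, 676 and 572 in C4BP. All C4BPD arrays lay above all DMSO arrays, and C4BP arrays overlapped DMSO. The rise was 14% (0.19, 95% interval 0.10 to 0.28; limma, adjusted p = 0.0309). It was lost without DMSO 1, 3, 4 or 5, without C4BPD 2, 4 or 5, with centred arrays and with the compared groups alone (adjusted p up to 0.102). All 5 fits without every array of a number lost it as well (up to 0.14).

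In the IAPP wells Cadps2 was at -0.13 against DMSO (adjusted p = 0.146), and the C4BP wells stood at 0.16 against IAPP (adjusted p = 0.13) and -0.16 against C4BPD (adjusted p = 0.0686), none of which passed. Its paralog Cadps, by the same 5 comparisons, was at 0.10 in C4BPD vs DMSO, -0.11 in IAPP vs DMSO, -0.03 in C4BP vs DMSO, 0.08 in C4BP vs IAPP and -0.13 in C4BP vs C4BPD. Rims2, an active-zone scaffold, differed by 0.04 in IAPP vs DMSO, and Sytl5, a relative of granuphilin, by -0.04; neither passed.

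**Figure D2:**
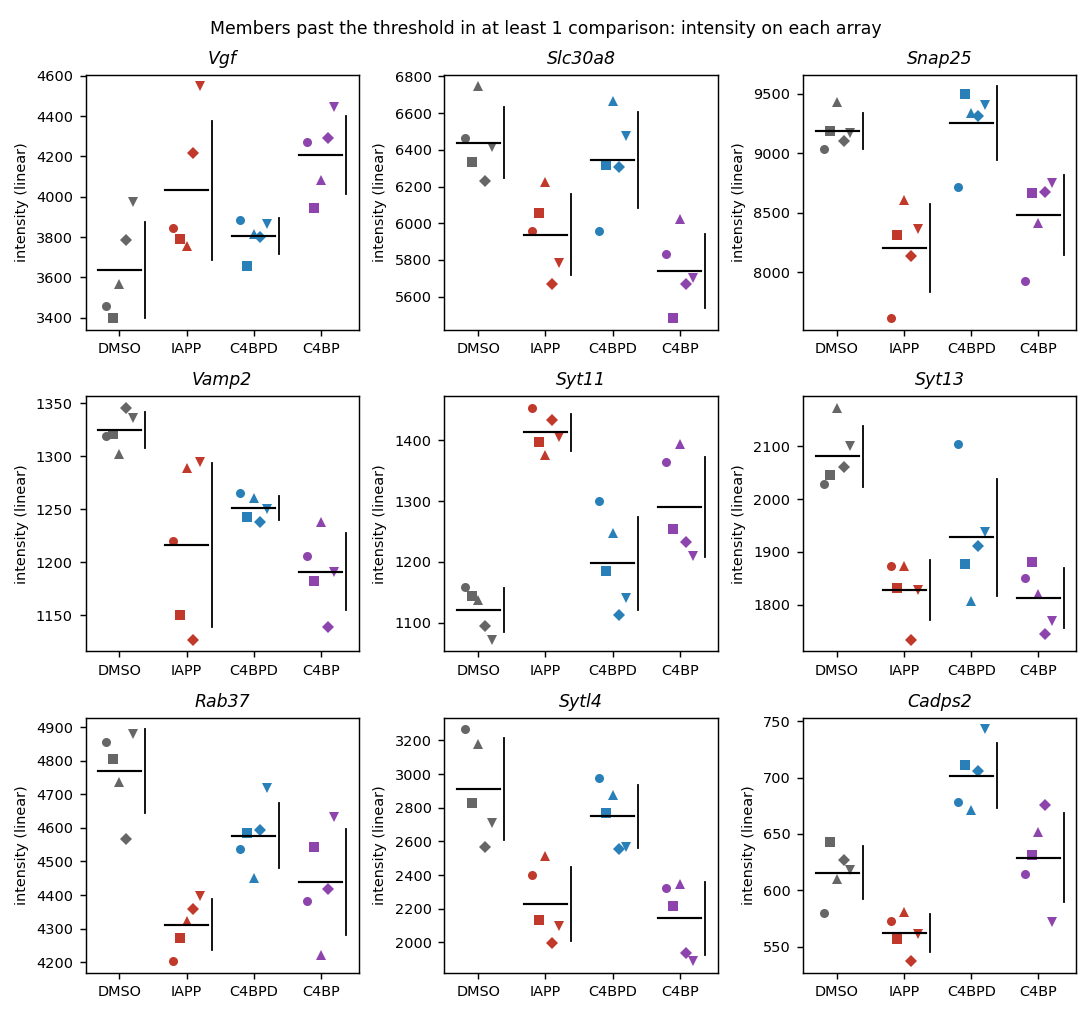
Intensity (y axis, linear scale) of the 9 genes past the threshold in at least 1 comparison, on each of 5 arrays in the DMSO, IAPP, C4BPD and C4BP groups (x axis). Marker shape gives the replicate number, horizontal lines the mean and vertical lines ± 1 SD, and the y axes do not start at 0; Sytl4 runs from 2569 to 3267 in DMSO and from 1996 to 2515 in IAPP.

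Set against each other, the cargo class had 0 of 8 genes called in IAPP vs DMSO. The fusion, docking and calcium-sensing class had 5 of 27 (18.5%, 1 higher and 4 lower), beside 3.38% of all genes. With only 8 cargo genes, a count of 0 cannot be told from that share of all genes. These counts are from the fit with no term for the replicate number. With such a term, which called 1133 of all genes, the cargo genes Vgf and Slc30a8 also passed in IAPP vs DMSO (limma, adjusted p = 0.0214 and 0.0281). So did Vamp2 and Stx3 of the fusion class (0.039 and 0.0384). In C4BP vs DMSO the counts were 2 of 8 (25%) and 4 of 27 (14.8%), beside 5.96% of all genes. Every gene of both classes had a mean log2 intensity above the median of all probe sets. With dim genes left out, 12.2% of the remaining 11154 genes were called in C4BP vs DMSO and 7.08% in IAPP vs DMSO. The class shares come from fits with dim genes kept in, so these percentages are not matched. How far the class shares go with brightness was not tested. The median log2 difference was -0.04 for cargo and -0.07 for the fusion class in IAPP vs DMSO, beside 0.002 over all genes. In C4BP vs DMSO the medians were -0.02 and -0.06, with 0.005 over all genes. By role, the median in IAPP vs DMSO was -0.07 for SNAREs, -0.04 for calcium sensors and clamps and -0.10 for docking and priming genes. In the sensor and clamp class only Syt11 and Syt13, which lack the usual calcium-binding residues, passed. Whether the classes differ was not tested.

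Per array, the median of the fusion class relative to the DMSO means lay at -0.01 to 0.01 in DMSO, -0.14 to -0.04 in IAPP, -0.02 to 0.04 in C4BPD and -0.08 to -0.02 in C4BP. The IAPP and C4BP arrays were all below the DMSO arrays on this measure. For cargo the ranges were -0.03 to 0.03 in DMSO, -0.09 to 0.01 in IAPP, 0.00 to 0.09 in C4BPD and -0.06 to 0.04 in C4BP, and every group overlapped DMSO. Over all genes the array medians stayed between -0.02 and 0.03.

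**Figure D3:**
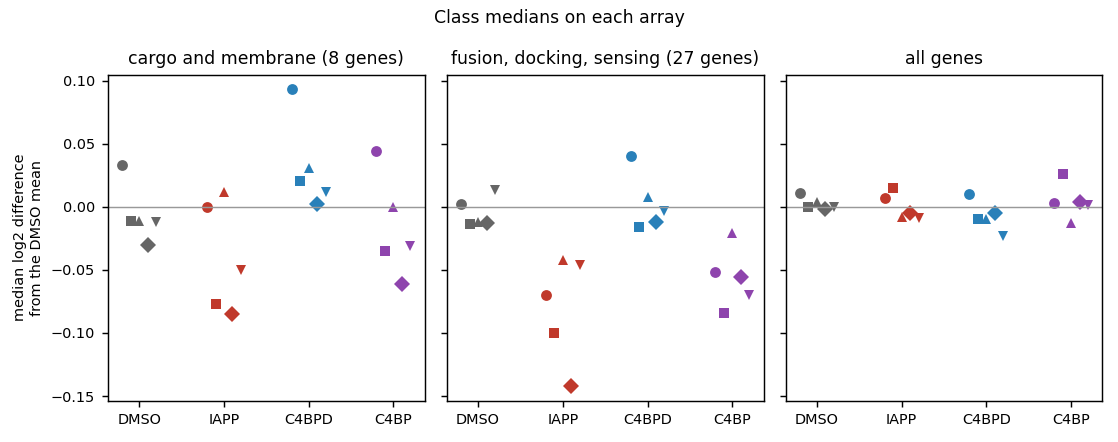
Median over a gene class (y axis) of log2 intensity minus each gene's mean over the 5 DMSO arrays, for every array of the DMSO, IAPP, C4BPD and C4BP groups (x axis); marker shape gives the replicate number. The fusion, docking and sensing class lies below 0 on all 10 IAPP and C4BP arrays, the cargo class spans 0 in both, and the median of all 18166 genes stays near 0.

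The small downward differences were spread over much of the list. In IAPP vs DMSO 29 of 35 genes had a difference below 0 (82.9%, against 49.1% of all genes), and 7 genes had IAPP arrays wholly below DMSO while 1 lay wholly above, where 2.69% and 2.14% of all genes did so (4.83% either way). C4BP vs DMSO had 24 of 35 below 0 (68.6% against 47.6%), with 7 wholly below and 1 wholly above (background 3.28% and 2.85%, 6.13% either way). C4BPD vs DMSO had 15 of 35 below 0 (42.9% against 54.6%), with Vamp2 wholly below and Cadps2 wholly above, 1 gene each (1.83% and 1.99%, 3.82% either way). These 3 comparisons share the DMSO arrays. C4BP vs C4BPD had 30 of 35 below 0 (85.7% against 44% of all genes), with 2, Vamp2 and Sytl4, wholly below and 1, Vgf, wholly above (2.37% and 1.36%, 3.73% either way). In C4BP vs IAPP 15 of 35 were below 0 (42.9% against 49.2%), and all 35 overlapped, where 0.903% of all genes lay wholly below and 1.48% wholly above (2.38% either way).

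On that reading of the titles, the difference made by IAPP can be read on separate sets of arrays, as IAPP vs DMSO and as C4BP vs C4BPD. Of the 35 genes, 27 were below 0 in both, 3 above 0 in both and 5 of opposite sign (Chgb, Rab27a, Rab3b, Rims2 and Stx1a). Over all 18166 genes, 29.5% were below 0 in both and 65.8% had the same sign in both, compared with 85.7% here. Across the 35 genes the paired differences correlated at a Pearson r of 0.83 and a Spearman rho of 0.79, and across all genes at 0.53 and 0.43; genes are not independent replicates, and the arrays share replicate numbers and 1 normalization. Syt11, Vgf and Stx3 were the 3 above 0 in both.

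**Figure D4:**
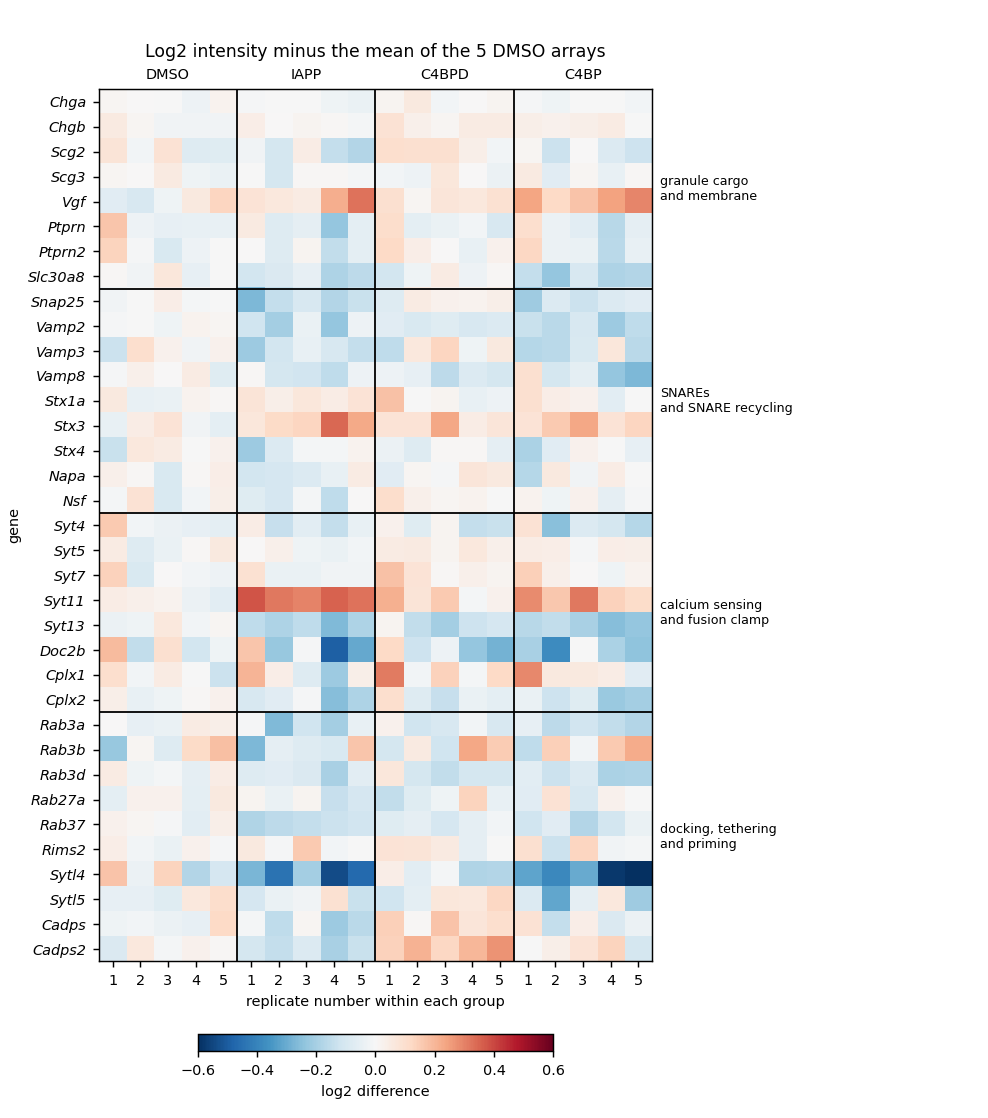
Log2 intensity of each of the 35 genes (rows, grouped by role) on each of 20 arrays (columns, replicates 1 to 5 of DMSO, IAPP, C4BPD and C4BP), minus the gene's mean over the 5 DMSO arrays; red is higher and blue lower, with the colour scale ending at ±0.6. Sytl4 is blue across IAPP and C4BP, Syt11 red across IAPP, and Cadps2 red across C4BPD.

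Other genes of the pathway, 113 measured of 127 listed by role, gave 3 higher and 2 lower in IAPP vs DMSO, 2 higher and 0 lower in C4BPD vs DMSO, 6 higher and 4 lower in C4BP vs DMSO, 1 higher and 3 lower in C4BP vs C4BPD and 0 in C4BP vs IAPP in limma's test, where 7 had an unadjusted p under 0.05 (6.19%, beside 7.93% of all genes). Those calls are 4.42%, 1.77%, 8.85% and 3.54% of the 113 in the first 4 comparisons, beside the 3.38%, 1.93%, 5.96% and 2.37% of all genes. Their median difference was 0.005 in IAPP vs DMSO, with 46.9% below 0, and 0.003 in C4BP vs DMSO, with 49.6% below 0. Syt10, a calcium sensor known from neuronal growth-factor secretion, averaged 469.8 ± 22.8 in DMSO, 358 ± 24.4 in IAPP and 327 ± 27.2 in C4BP (SD, n = 5 arrays per group). It fell by 24% in IAPP vs DMSO and fell by 30.6% in C4BP vs DMSO (limma, adjusted p = 0.001 and 1.85e-05). Ppfia2, the active-zone scaffold liprin-alpha-2, fell by 14.8% in IAPP and fell by 20.7% in C4BP. In C4BP vs C4BPD, Syt10 fell by 19% and Ppfia2 fell by 16.1%. Cltrn, the beta-cell membrane protein collectrin, fell by 21.4% in C4BP vs DMSO (adjusted p = 9e-04), and Madd, an exchange factor for Rab3, fell by 9.02% (adjusted p = 0.0443), the latter call being lost under 4 of 8 other scalings and fits.

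Among those that rose, Stxbp5l, a tomosyn that competes for SNAREs, was higher by 18.7% in IAPP, Atp6v0a1, a subunit of the proton pump that acidifies granules, by 8.71% in IAPP and 8.55% in C4BP, and Rab3il1, an exchange factor for Rab GTPases, by 14.4% and 18.4%, also 19.5% in C4BP vs C4BPD. Esyt1, a tether between the endoplasmic reticulum and plasma membrane, rose by 18.1% in C4BP vs DMSO (adjusted p = 0.00253). Stx16, a syntaxin of the trans-Golgi network, rose in C4BPD vs DMSO from 686 ± 16.7 to 818 ± 20.2, by 19.3% (adjusted p = 0.00109), and fell by 11.6% in C4BP vs C4BPD. Erc2, an active-zone scaffold, rose by 21.3% in C4BPD and 17.5% in C4BP. The IAPP calls of Stxbp5l, Atp6v0a1 and Rab3il1, the Madd call, both Erc2 calls and the second Stx16 call were each lost without some single arrays, at adjusted p up to 0.139. Both Atp6v0a1 calls and the C4BP call of Erc2 were also lost with centred arrays and with the compared groups alone (up to 0.129), the C4BPD call of Erc2 and the second Stx16 call with the compared groups alone (up to 0.0874), and the Rab3il1 call in IAPP under 4 of 8 other scalings and fits (up to 0.143). In C4BP vs C4BPD the Syt10 and Ppfia2 calls were lost with the compared groups alone (up to 0.0758).

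How far each gene followed the treatment or the replicate number differed widely. The group accounted for 79.5% of the variance of Cadps2, 79.4% of Syt11, 72% of Snap25, 71.9% of Syt13, 71.8% of Rab37 and 71% of Sytl4, beside a median of 35% over the 35 genes and 18% over all genes. All of these named genes passed the F test, which uses the same group means, so their high shares add no support. The replicate number accounted for 76.7% in Rab3b, 72.7% in Ptprn, 70.5% in Syt7, 63.4% in Syt4 and 62.5% in Ptprn2, with medians of 32.4% and 28.3%. For Ptprn, Syt4 and Syt7, replicate 1 was among the bright arrays, and for Rab3b among the dim ones: its DMSO values were 2589.6, 3059, 2869, 3278 and 3431. The labels do not say whether the number marks a clone, a plate or a day.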

How the data were processed

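RNA from 20 wells of INS-1 cells was hybridised to Affymetrix Rat Gene 2.0 arrays. The authors deposited 1 intensity per probe set and array on a linear scale, made with Affymetrix Expression Console per the submitters' processing notes; its version, the summarisation algorithm and the genome build were not given in the sources used here. Any background correction or quantile step in it can pull arrays together and shrink differences. Here log2 of the deposited intensity was taken with no further scaling. Of 36685 probe sets, 18511 carry exactly 1 gene symbol in the platform annotation, 575 several and 17599 none; the brightest probe set stood for a gene, giving 18166 genes. Stx1a has more than 1 probe set.

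Groups came from the sample titles. limma 3.58.1 in R 4.3.3 fitted 4 group means (16 residual degrees of freedom; the design written earlier says 1 fewer, by a slip) with moderated tests and Benjamini-Hochberg adjustment over all 18166 genes, for 5 pairwise comparisons, the interaction and an F test. Intervals are 95%. The script was tested on simulated data. The precision rests on 5 arrays a group. The 36 genes, their classes and the other lists were chosen with earlier results of these data known. Named genes are those past the threshold, with the other exocytosis genes given by role; of the other pathway genes, those past the threshold with the smallest p are named, up to 4 each way in a comparison. Figures were drawn with matplotlib 3.10.9 in Python 3.11.15. Alternatives were centring, quantile normalization, leaving out dim genes, averaging probe sets, array weights, a replicate block, groups by the treatment field, log2(value + 16), the compared groups alone and leaving out arrays. Promoter sequences are RefSeq's (GRCr8).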

Additional observations from a re-analysis of the deposited data

Results flagged for a closer look

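Within-group outliers were sought in 140 sets of 5 arrays (35 genes in 4 groups) with Dixon's ratio, the gap from an extreme array to its nearest neighbour divided by the group's range. In 12 sets the ratio passed 0.71, and chance puts about 1 in 20 sets past it. Replicate 1 gave 6 of the 12. Ptprn in DMSO replicate 1 read 5379, above the 4634 to 4699.6 of the other arrays (ratio 0.906). Snap25 in C4BPD replicate 1 read 8715, below the 9312 to 9499.6 of the other arrays (ratio 0.768). Stx1a in C4BPD replicate 1 read 2032, above the 1746 to 1817 of the other arrays (ratio 0.738). Syt4 in DMSO replicate 1 read 908, above the 782 to 806 of the other arrays (ratio 0.8). Syt7 in IAPP replicate 1 read 2130, above the 1942 to 1972 of the other arrays (ratio 0.832). Rab3d in C4BPD replicate 1 read 4817, above the 4148 to 4264 of the other arrays (ratio 0.815).

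Scg3 in IAPP replicate 2 read 4434, below the 4742 to 4800.5 of the other arrays (ratio 0.847). Stx3 in C4BPD replicate 3 read 868, above the 760.4 to 782 of the other arrays (ratio 0.789). Napa in DMSO replicate 3 read 2780, below the 2978 to 3047 of the other arrays (ratio 0.749). Syt5 in C4BP replicate 3 read 5523, below the 5681 to 5714 of the other arrays (ratio 0.83). Rab3d in IAPP replicate 4 read 4007, below the 4326 to 4386 of the other arrays (ratio 0.848). Cadps in DMSO replicate 5 read 1538, above the 1369 to 1400.3 of the other arrays (ratio 0.804). Of the 9 genes past the threshold in a comparison, only Snap25 is among these, in C4BPD, a group that its call in IAPP vs DMSO does not compare.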

How the results depend on the processing

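Grouping by the treatment field gave 0 exocytosis genes and 0 of all genes in each of the 5 comparisons, the interaction and the F test, and turned 30 log2 differences, none of them past the threshold: in IAPP vs DMSO Snap25 0.013, Syt11 -0.002, Syt13 0.032, Rab37 0.006, Sytl4 0.09, Atp6v0a1 -0.004, Stxbp5l 0, Rab3il1 -0.082, Syt10 0.147, Ppfia2 0.052; in C4BPD vs DMSO Cadps2 -0.003, Erc2 -0.099; in C4BP vs DMSO Vgf -0.059, Slc30a8 0.03, Vamp2 0.033, Syt11 -0.029, Syt13 0.046, Sytl4 0.006, Esyt1 -0.123, Rab3il1 -0.06, Atp6v0a1 -0.016, Erc2 -0.166, Syt10 0.106, Ppfia2 0.117, Cltrn 0.085, Madd 0.023; in C4BP vs C4BPD Sytl4 0.048, Rab3il1 -0.061, Ppfia2 0.097, Syt10 0.084. The cause was not tested here or for the values that follow.

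The pairing of arrays by replicate number is not stated in the labels, whose titles number the arrays in runs of 4 that share it, and did not meet the rule used here, a correlation above 0.1 in all pairs of a comparison. Deviations of same-numbered arrays correlated above 0.1 in 2 of 5 pairs for IAPP vs DMSO and 4 of 5 for C4BP vs IAPP. For C4BPD vs DMSO, C4BP vs DMSO and C4BP vs C4BPD it was 3 of 5. Of 20 arrays, 16 lay closest to an array of their own number in another group. In the titles, each run of 4 holds every group under 1 number, which is a block arrangement. What the number marks is not stated. With the replicate number as a block, the exocytosis genes called were 9 in IAPP vs DMSO, 1 in C4BPD vs DMSO, 10 in C4BP vs DMSO, 0 in C4BP vs IAPP, 5 in C4BP vs C4BPD, 0 in the interaction and 11 in the F test, and all genes called 1133, 797, 1884, 352, 958, 18 and 2604. The block took no call from an exocytosis gene. The log2 differences that it alone put past the threshold were, in IAPP vs DMSO, Vgf (0.15, adjusted p = 0.0214), Slc30a8 (-0.12, adjusted p = 0.0281), Vamp2 (-0.13, adjusted p = 0.039) and Stx3 (0.18, adjusted p = 0.0384), in C4BP vs DMSO, Snap25 (-0.12, adjusted p = 0.0113), Rab3a (-0.13, adjusted p = 0.0424), Rab3d (-0.13, adjusted p = 0.0236) and Rab37 (-0.10, adjusted p = 0.0222), and in C4BP vs C4BPD, Scg2 (-0.13, adjusted p = 0.0157), Vgf (0.14, adjusted p = 0.0279), Slc30a8 (-0.14, adjusted p = 0.00935) and Snap25 (-0.13, adjusted p = 0.0124).

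With only the compared groups fitted, 3, 0 and 3 exocytosis genes passed in IAPP, C4BPD and C4BP vs DMSO, and of all genes 208 in C4BPD vs DMSO, 663 in C4BP vs DMSO, 33 in C4BP vs IAPP and 223 in C4BP vs C4BPD. Centring gave 0 exocytosis genes and 221 of all genes in C4BPD vs DMSO, and 70 in C4BP vs IAPP. Array weights gave 2 exocytosis genes and 644 of all genes in C4BPD vs DMSO. In C4BP vs C4BPD, array weights and leaving out dim genes each gave 3 exocytosis genes, and quantile normalization 2. Without dim genes, 599 of 11154 genes (5.37%) passed in C4BP vs C4BPD and 201 (1.8%) in C4BP vs IAPP. Counts of all genes are not given here for array weights and quantile normalization in C4BP vs C4BPD. Nor are they for IAPP vs DMSO with only the compared groups, so those exocytosis counts lack a background.

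Without 1 array, exocytosis genes called ran from 4 to 6 in IAPP vs DMSO, 0 to 2 in C4BPD vs DMSO, 4 to 7 in C4BP vs DMSO, 0 to 3 in C4BP vs C4BPD and 6 to 9 in the F test, with 0 in C4BP vs IAPP and the interaction. All genes called ran from 405 to 584, 217 to 386, 844 to 1011, 308 to 522 and 1202 to 1583, and from 58 to 97 in C4BP vs IAPP and 3 to 10 in the interaction. The lowest count in IAPP vs DMSO, 405, was without IAPP 4. Without all 4 arrays of a number, an alternative chosen after seeing the data, the counts without numbers 1 to 5, in that order, were for exocytosis genes 4, 1, 3, 2 and 2 (IAPP vs DMSO), 0, 0, 0, 0 and 0 (C4BPD vs DMSO), 4, 3, 4, 3 and 3 (C4BP vs DMSO), 2, 0, 1, 0 and 0 (C4BP vs C4BPD), 6, 4, 6, 3 and 3 (any difference), with 0 throughout in C4BP vs IAPP and the interaction, and for all genes 542, 286, 402, 235 and 335 (IAPP vs DMSO), 299, 173, 167, 170 and 151 (C4BPD vs DMSO), 1059, 693, 717, 627 and 615 (C4BP vs DMSO), 66, 28, 45, 18 and 52 (C4BP vs IAPP), 395, 211, 336, 226 and 200 (C4BP vs C4BPD), 0, 1, 0, 0 and 0 (interaction), 1316, 799, 907, 716 and 837 (any difference). No scaling moved the median of all genes by over 0.1 on the log2 scale. The number of arrays limits the precision.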
